A study of Mus musculus with 17 samples.

Results

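The comparison described here is that of mouse embryonic stem cells with a slow RNA polymerase II after 2 days in 2i medium against the same cells before 2i was added. It rests on 4 of the 17 RNA-seq libraries of the series, 2 at day 0 and 2 at day 2, chosen by the genotype and the days of treatment in their labels. The cells are E14, an embryonic stem cell line derived from mouse strain 129, and the mutant cells carry the slow polymerase allele on both copies of the gene (slow/slow in the labels). Both groups grew without feeder cells on 0.1% gelatine in DMEM with 10% fetal bovine serum and 1000 U/mL of leukaemia inhibitory factor (LIF). The day 2 cells also had 1 µM PD0325901, an inhibitor of the kinase MEK, and 3 µM CHIR99021, an inhibitor of the kinase GSK3, for 2 days. Serum and LIF were therefore present on both sides of the comparison, and the slow polymerase was too. Mutant cells after 1 day (3 libraries) and 7 days of 2i (2 libraries), and wild-type (WT) E14 cells after 0, 1, 2 and 7 days (2 libraries each), were measured as well. The labels do not say how many mutant clones were used, nor whether replicates were separate cultures, so the p-values measure only the spread between these samples, which may be technical.

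Mouse embryonic stem cells in serum and LIF are a mixture of cells close to the naive epiblast of the early embryo and cells that express genes of the later, formative epiblast. MEK and its target ERK carry the FGF signal that drives cells out of the naive state, and they induce their own inhibitors of the Sprouty and DUSP families, so these genes serve as a readout of the pathway. GSK3 marks beta-catenin for destruction, and blocking it turns on genes bound by the TCF/LEF factors. Together the 2 inhibitors, hence 2i, hold cells in a more uniform naive state, in which the de novo DNA methyltransferases are low. The slow polymerase allele changes the catalytic enzyme that transcribes every protein-coding gene, so that it moves along the DNA at a lower rate.

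The 17 libraries held between 47350441 and 56138844 counts. The 2 mutant day 0 libraries held 50236295 and 53239889 counts, and the 2 mutant day 2 libraries held 50427904 and 50900097. Of 20621 genes in the table, 15365 passed the filter on low counts and were tested. The mutant replicates lay close together, with a correlation of log2 CPM across genes of 0.988 at day 0 and 0.984 at day 2, while the WT replicate pairs lay between 0.938 and 0.971. Among 10322 genes with a mean of at least 5 CPM, the counts scaled to library size,, 1.17% differed by 2-fold or more between the mutant day 0 replicates and 2.79% between the mutant day 2 replicates, against 7.91% to 15.5% in the 4 WT pairs. Polr2a, which encodes the subunit that carries the slow allele, was at 712 and 611 CPM at day 0 and at 664 and 514 CPM at day 2, and it was not called different (edgeR adjusted p = 0.897).

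After 2 days of 2i the mutant cells had lower RNA for 7 of 26 ERK feedback and target genes, Spry4 and Etv4 among them, and for 5 of 15 formative epiblast genes, with Otx2 among them, and higher RNA for Nanog, Tfcp2l1 and Cdx1. Across all genes, 449 of 15365 (2.92%) differed between day 2 and day 0 at a Benjamini-Hochberg adjusted p under 0.05 in edgeR's quasi-likelihood test, the rule for a called gene used throughout. Of these, 263 (1.71% of the genes tested) were higher and 186 (1.21%) were lower, and 415 of the 449 changed by at least 2-fold. The median log2 difference over all tested genes was 0.02, which the normalization sets near 0.

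The count of called genes depended on which libraries set the spread. All 17 libraries entered the fit, and their shared estimate of the spread includes the wider WT pairs. With the mutant libraries alone, 1713 of 14708 genes (11.6%) were called, 865 higher (5.88%) and 848 lower (5.77%), and all 449 were among them. DESeq2 called 1220 genes, again with all 449 among them. Leaving out 1 of the 4 libraries compared, so that its day had a lone library assumed to vary like the other groups, cut the count to 45 or 107 without day 0 replicate 1 or 2, and to 103 or 67 without day 2 replicate 1 or 2. Of the 53 named genes that were called, 9 stayed called whichever of these 4 libraries was left out, namely Utf1, Dmgdh, Cdx1, Enpp3, Spink1, Dppa4, Arhgef28, Col6a5 and Cdkn1c. None of the 53 changed direction in any of these 4 fits.

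**Figure D1:**
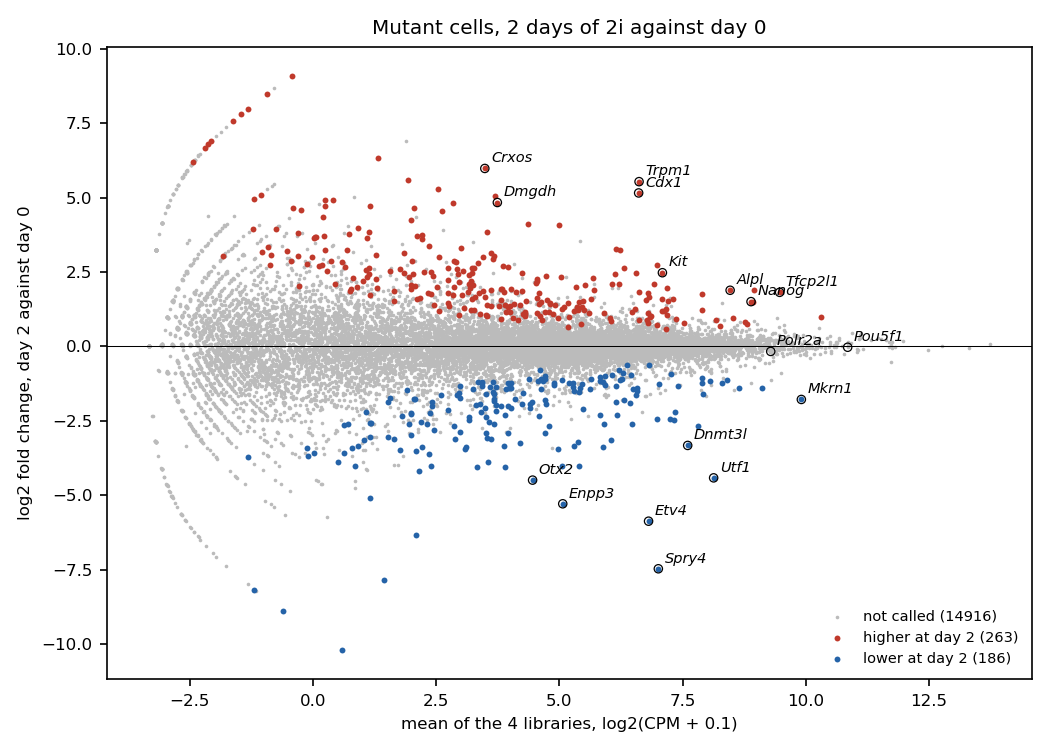
Mean level of each tested gene in the 4 libraries, as log2(CPM + 0.1), against its log2 difference between mutant day 2 and day 0, with called genes coloured by direction and some genes labelled. The 263 called rises and 186 called falls lie on either side of a cloud centred near 0, and Spry4 and Etv4 are among the deepest falls.

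Several genes of the ERK pathway were among the deepest falls. Of 26 tested members of a list of ERK feedback inhibitors and target genes, 7 fell and none rose, and the median log2 difference of the list was -1.15, against 0.02 over all genes. Under the fit to the mutant libraries alone the list had 13 falls and 1 rise. Spry4, a Sprouty protein that blocks signalling from growth factor receptors to ERK, was at 236 and 276 CPM at day 0 and at 2.19 and 0.687 CPM at day 2. The day 0 and day 2 libraries were about 2 orders of magnitude apart, with no overlap. This was a 178-fold fall (log2 difference -7.47 ± 1.21 SE, edgeR adjusted p = 0.00689). Spry4 lies on chromosome 18 at 38586247 to 38601415 (mm10, minus strand).

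Etv4, an ETS transcription factor that is switched on by FGF and ERK, fell 58.6-fold, from 237 and 204 CPM to 5.13 and 2.39 CPM (log2 difference -5.87 ± 1.04 SE, edgeR adjusted p = 0.0117). Its relative Etv1 fell 16.6-fold, from 20.3 and 17.1 CPM to 1.80 and 0.445 CPM (adjusted p = 0.0156). The third gene of that subfamily, Etv5, was not called and stayed high, at 421 and 340 CPM at day 0 and at 349 and 296 CPM at day 2. The 3 related factors thus had unlike values in the same libraries: Etv5 overlapped between the days, and Etv4 and Etv1 did not.

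Of 5 tested dual-specificity phosphatases, which remove the activating phosphates from ERK and other MAP kinases, Dusp6 and Dusp4 fell and Dusp1, Dusp5 and Dusp14 were not called. Dusp6, which is specific for ERK in the cytoplasm, was at 70.2 and 87.4 CPM at day 0 and at 8.003 and 1.78 CPM at day 2, a 16.1-fold fall (edgeR adjusted p = 0.0259). Dusp4, its nuclear counterpart, fell from 52.1 and 71.9 CPM to 5.52 and 2.18 CPM (adjusted p = 0.0333). Dusp14 had a positive difference of 0.84 (adjusted p = 0.3925, but 0.0430 with the mutant libraries alone, the 1 rise of the list there). In Dusp6 and Dusp4, day 2 replicate 1 held more RNA than replicate 2, by a factor larger than that between the day 0 replicates. The list as a whole had the same order, with only 3 of 26 tested members higher in day 2 replicate 2. The median log2 difference of replicate 2 from replicate 1 was -0.50 at day 2 and -0.19 at day 0. Spry1, the second Sprouty gene called, fell less far, from 31.4 and 36.2 CPM to 10.5 and 8.29 CPM (3.61-fold, adjusted p = 0.0111).

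Myc, a transcription factor for growth that ERK signalling both induces and stabilises, fell 6.04-fold, from 118.5 and 87.7 CPM to 20.1 and 14.1 CPM (edgeR adjusted p = 0.0489). Ccnd1, which encodes cyclin D1, was not called, with 188 and 156 CPM at day 0 and 199 and 161 CPM at day 2. Egr1 and Fos, immediate early genes that respond to ERK within minutes, were far apart between the day 2 replicates. Egr1 was at 35.6 and 29.98 CPM at day 0, and at 109 CPM in day 2 replicate 1 but 1.70 CPM in replicate 2, so that the day 2 values lay on either side of both day 0 values. The same spread appeared at day 1, with 8.55, 162 and 3.92 CPM in the 3 libraries. Fos had the same order at day 2, with 8.98 CPM in replicate 1 and 1.90 CPM in replicate 2, against 3.69 and 3.14 CPM at day 0. Neither gene was called, and what set replicate 1 apart in them was not tested. Other immediate early genes, looked up after their values were seen, lay closer together between the day 2 replicates than Egr1 and Fos did. In replicates 1 and 2, Junb was at 32.4 and 28.0 CPM, and Ier2 at 199.9 and 240.7 CPM. Jun was at 22.5 and 12.9 CPM there, Fosl1 at 0.703 and 0.3235 CPM, and Ier3 at 4.29 and 6.71 CPM. In WT, Egr1 replicates 1 and 2 were also far apart, at 181.5 and 4.51 CPM at day 1 and 95.1 and 0.821 CPM at day 2.

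The targets of beta-catenin, which the GSK3 inhibitor acts on, gave 1 called rise. Of 20 tested members of a list of TCF/LEF target genes, Cdx1 rose and none fell, with a list median of 0.14. Cdx1, a caudal-type homeobox factor that is a direct target of Wnt signalling in the embryo, was at 4.72 and 5.91 CPM at day 0 and at 128.5 and 251 CPM at day 2. The rise was 35.7-fold (log2 difference 5.16 ± 0.61 SE, edgeR adjusted p = 0.00171). Cdx1 lies on chromosome 18 at 61018862 to 61036199 (mm10).

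Several other targets were higher in both day 2 libraries than in both day 0 libraries without being called. Sp5, a zinc finger factor that follows Wnt activity closely, had 8.55 and 5.00 CPM at day 0 and 67.3 and 88.8 CPM at day 2 (edgeR adjusted p = 0.160). Axin2, the negative feedback gene of the pathway, had 19.03 and 15.4 CPM at day 0 and 52.9 and 55.3 CPM at day 2 (adjusted p = 0.0977). For Sp5 the mutant replicates lay closer together than the WT day 0 libraries, which held 57.4 CPM in replicate 1 and 0.947 CPM in replicate 2. Axin2 was at 44.3 and 24.2 CPM in those WT libraries. T, the mesoderm factor brachyury, was at 113 and 0.203 CPM in the same 2 WT libraries, and at 0.522 and 0.255 CPM in the mutant at day 0 and 6.62 and 9.24 CPM at day 2 (adjusted p = 0.309). With the mutant libraries alone, edgeR gave adjusted p = 0.000293 for Sp5, 0.000213 for T, 0.00552 for Axin2 and 0.00141 for Cdx2. The list had 8 rises and 1 fall in that fit. Lef1, which encodes a factor that binds these targets, had lower values at day 2, with 39.5 and 20.6 CPM at day 0 and 3.67 and 8.33 CPM at day 2 (adjusted p = 0.419 in the fit to all libraries).

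**Figure D2:**
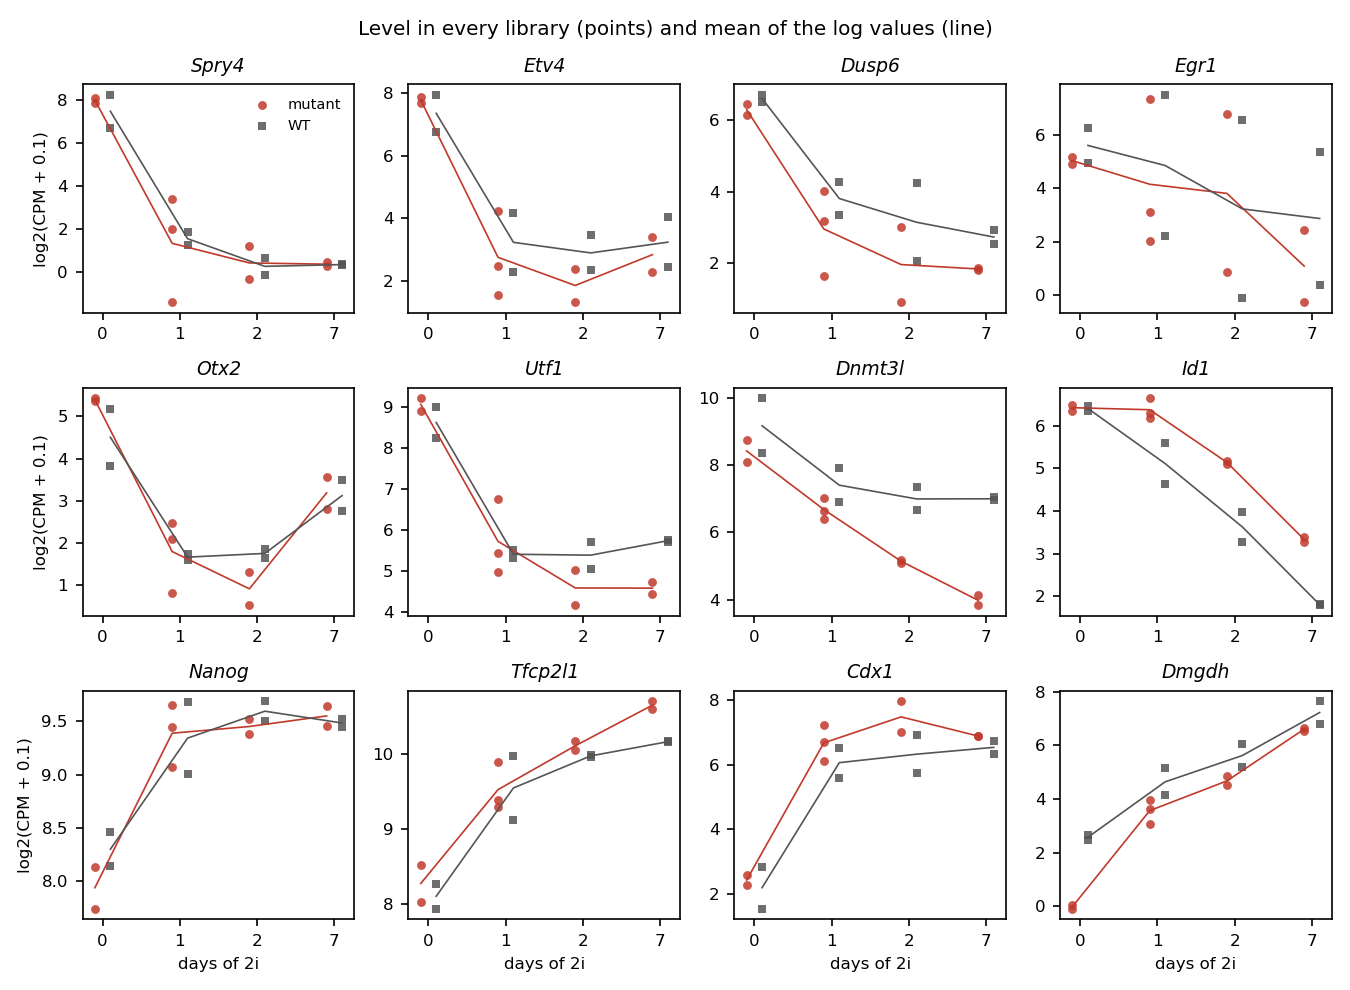
Level of 12 genes, as log2(CPM + 0.1), against days of 2i; each point is 1 library (mutant circles, WT squares) and lines join the means of the log values. In the mutant, Spry4, Etv4, Otx2 and Utf1 have day 2 points far under the day 0 points, Nanog, Tfcp2l1, Cdx1 and Dmgdh have them above, and the day 2 points of Egr1 lie on either side of day 0.

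Among the naive pluripotency factors, which hold cells in the state of the preimplantation epiblast, 2 of 17 tested members rose and none fell. The list median was 0.86 and 13 of the 17 differences were positive. In bulk RNA, a change in the share of cells in a state and a change in the RNA per cell cannot be told apart, which holds for all lists here. Nanog, the homeobox factor at the centre of the naive network, rose 2.84-fold, from 281 and 213 CPM to 734 and 669 CPM (log2 difference 1.51 ± 0.24 SE, edgeR adjusted p = 0.00689). Tfcp2l1, a factor that acts downstream of both LIF and GSK3 inhibition, rose 3.53-fold, from 261 and 365 CPM to 1152 and 1057 CPM (log2 difference 1.82 ± 0.28 SE, adjusted p = 0.0052). The day 0 and day 2 libraries did not overlap in either gene.

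The other naive factors had smaller or no differences. Prdm14, which represses the FGF receptors and the de novo methyltransferases, was at 23.7 and 22.5 CPM at day 0 and at 58.2 and 54.6 CPM at day 2, just outside the threshold (edgeR adjusted p = 0.0501). Klf4 was at 106 and 123 CPM and then at 234 and 187 CPM (adjusted p = 0.164). Esrrb, an orphan nuclear receptor that GSK3 inhibition relieves from repression, was already high at day 0 with 667 and 846 CPM, and was at 1031 and 903 CPM at day 2 (adjusted p = 0.653). Zfp42, also called Rex1 and often used as a reporter of the naive state, was at 880 and 773 CPM and then at 774 and 768 CPM. Fitted to the mutant libraries alone, 8 of the 17 rose and none fell.

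Among the general pluripotency factors, which naive and primed cells share, 11 of 12 tested members had negative differences. Pou5f1, or Oct4, was not called, with 1894 and 1834 CPM at day 0 and 1497 and 2160 CPM at day 2 (edgeR adjusted p = 0.995). Sox2 was at 503 and 532 CPM and then at 487 and 397 CPM (adjusted p = 0.778). Of the 12, 2 fell and none rose, with a median of -0.72, and 6 fell with the mutant libraries alone and 5 in DESeq2. Utf1, a chromatin factor of embryonic stem cells, fell 21.4-fold, from 592 and 479 CPM to 32.3 and 17.8 CPM (log2 difference -4.42 ± 0.55 SE, adjusted p = 0.00197). It is a short gene on chromosome 7 at 139943789 to 139945112 (mm10). Dppa4, which helps keep developmental promoters free of DNA methylation, fell 2.54-fold, from 271 and 218 CPM to 89.1 and 104 CPM (adjusted p = 0.00229).

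Of 15 tested members of the list of formative and primed epiblast genes, 5 fell and none rose, with a median of -1.65, and 10 fell in the fit to the mutant libraries alone. Otx2, the homeobox factor that steers enhancers from the naive to the formative state, fell 22.5-fold, from 43.0 and 40.8 CPM to 2.38 and 1.33 CPM (log2 difference -4.49 ± 0.61 SE, edgeR adjusted p = 0.00261). Pou3f1, or Oct6, a partner of Otx2 at those enhancers, fell 8.60-fold, from 23.0 and 20.3 CPM to 3.05 and 1.98 CPM (adjusted p = 0.0262). Grhl2, an epithelial enhancer factor, fell 7.51-fold, from 55.2 and 36.6 CPM to 6.44 and 5.78 CPM (adjusted p = 0.0343). Tcf15, a helix-loop-helix factor linked to priming by FGF, fell 4.93-fold, from 115 and 124 CPM to 18.6 and 29.7 CPM (adjusted p = 0.0241). Fgf5, the classic marker of the primed epiblast, was at 2.01 and 1.99 CPM at day 0 and at 0.156 and 0 CPM at day 2, and was not called (adjusted p = 0.2205, but 0.00902 with the mutant libraries alone). Zic2, Zic5, Sall2 and Sox3 of the same list had differences between -0.29 and 0.02.

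The enzymes that place DNA methylation anew fell, while those that maintain it did not pass the test. Of 11 tested DNA methylation genes, 3 fell and none rose. Dnmt3l, the cofactor without catalytic activity that stimulates both de novo enzymes, had 433 and 274 CPM at day 0 and 34.1 and 36.4 CPM at day 2 (log2 difference -3.33 ± 0.50 SE, edgeR adjusted p = 0.00458). Dnmt3l overlaps Aire on the opposite strand, Aire fell from 38.5 and 30.5 CPM to 4.45 and 10.1 CPM, and the strand setting of the counting is not given in the sources used here, so reads of the pair cannot be told apart. Dnmt3b, which is also in the formative list, fell 4.62-fold, from 344 and 191 CPM to 64.0 and 51.8 CPM (adjusted p = 0.0234). Dnmt3a fell 3.13-fold, from 179 and 106 CPM to 50.0 and 40.9 CPM (adjusted p = 0.0212). The maintenance enzyme Dnmt1 was at 559 and 577 CPM and then at 614 and 546 CPM (adjusted p = 0.976), and its targeting factor Uhrf1 was at 589 and 539 CPM and then at 645 and 720 CPM (adjusted p = 0.831). Tet1, Tet2 and Tet3, which oxidise methylated cytosine, were not called.

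**Figure D3:**
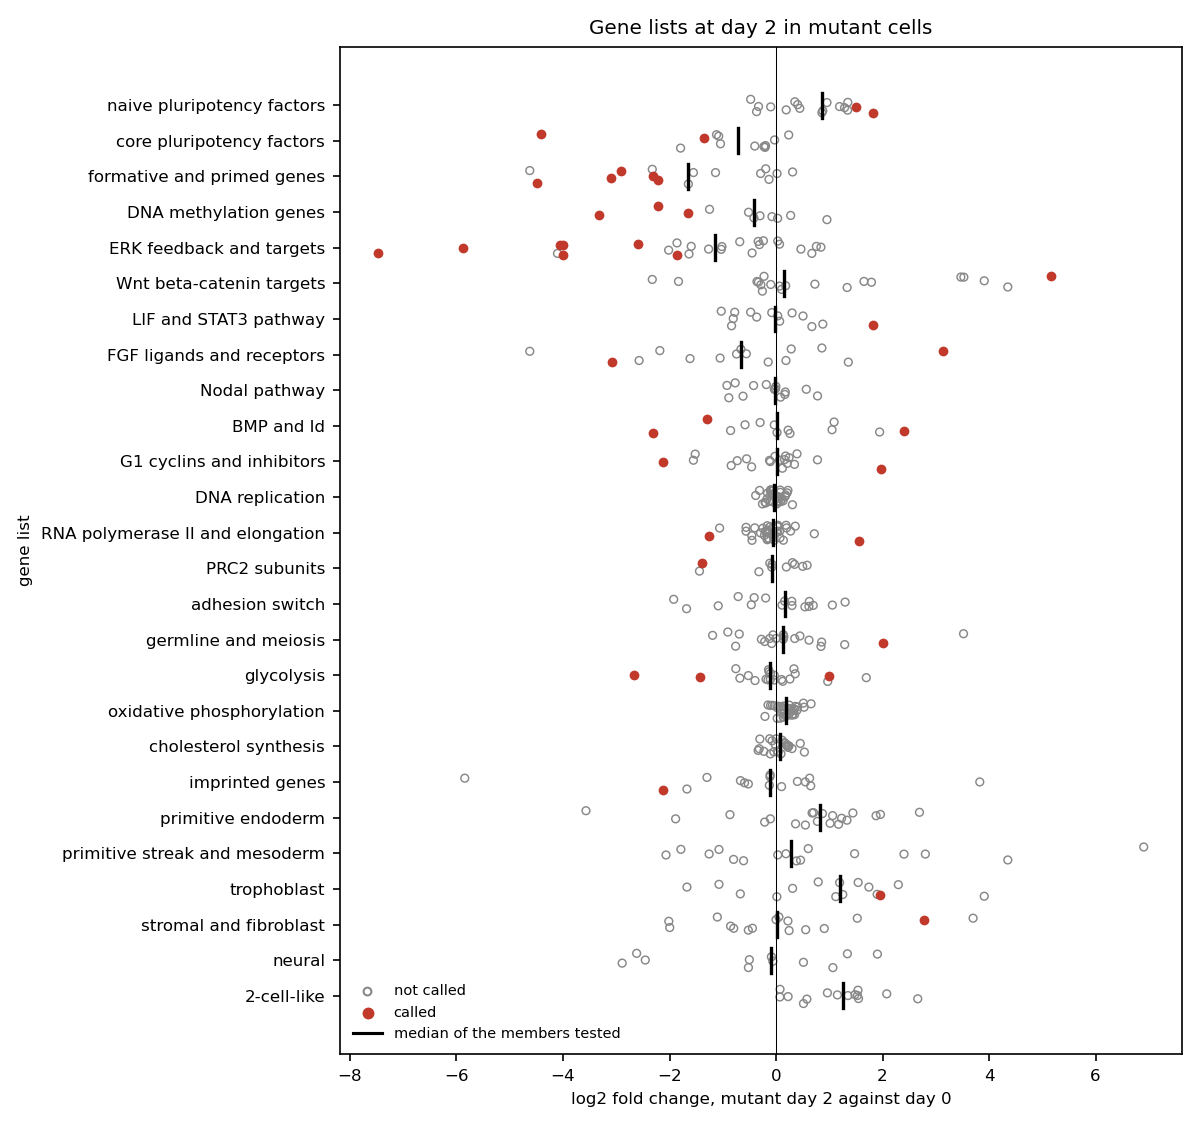
Log2 difference between mutant day 2 and day 0 for every tested member of each gene list, 1 point a gene, filled where called, with the list median as a bar. The medians of the formative genes (-1.65) and the ERK targets (-1.15) are the lowest of the 26 lists, and the DNA replication list (median -0.04) is narrow around 0.

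The ligands and receptors that feed these pathways were mixed. Of 15 tested FGF ligands and receptors, 1 rose and 1 fell, with a median of -0.66. With the mutant libraries alone the list had 2 rises and 5 falls, and in DESeq2 1 rise and 3 falls. Fgf15, an endocrine FGF, fell 8.41-fold, from 20.95 and 20.00 CPM to 3.05 and 1.82 CPM (edgeR adjusted p = 0.0130). Fgf3 rose 8.77-fold from a low level, from 0.803 and 0.639 CPM to 5.37 and 7.30 CPM (adjusted p = 0.0186). Fgf4, the main autocrine ligand that activates ERK in embryonic stem cells, was at 206 and 194 CPM at day 0 and at 358 and 369 CPM at day 2 (adjusted p = 0.198). The Fgf4 values did not overlap between the days, but the test did not pass in the fit to all libraries. With the mutant libraries alone it passed (edgeR adjusted p = 0.00327), and in DESeq2 it did not (adjusted p = 0.114).

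The BMP list gave 2 falls and 1 rise among 13 tested members. Bmp4, the ligand that with LIF maintains embryonic stem cells without serum, fell 4.96-fold, from 86.7 and 101 CPM to 19.8 and 18.1 CPM (edgeR adjusted p = 0.0156). Id1, the inhibitor of helix-loop-helix factors that BMP signals induce, fell 2.45-fold, from 82.2 and 90.2 CPM to 34.6 and 35.9 CPM (adjusted p = 0.0336, but 0.263 when offsets by gene span were added to the fit). Msx2, a homeobox gene that also responds to BMP, rose 5.26-fold, from 3.61 and 2.04 CPM to 15.6 and 14.2 CPM (adjusted p = 0.0485, but 0.0511 with another normalization and 0.0669 with the span offsets). The direction of the BMP targets Id1 and Msx2 was therefore opposite.

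In the LIF pathway, Tfcp2l1 was the only one of 14 tested members called, and the median of the list was -0.02. With the mutant libraries alone that list had 2 rises and 2 falls. Socs3, the feedback inhibitor that follows STAT3 activity, was at 144 and 154 CPM at day 0 and at 90.9 and 141 CPM at day 2 and was not called. None of 14 tested Nodal pathway genes was called, although 2 fell with the mutant libraries alone, and Nodal itself was at 101 and 93.6 CPM and then at 96.8 and 96.6 CPM.

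The genes with the largest called rises, among those at 5 CPM or more, had low levels at day 0. Crxos, a homeobox gene of early embryos, rose 63.2-fold, from 0.361 and 0.328 CPM to 11.0 and 32.8 CPM (log2 difference 5.98 ± 1.12 SE, edgeR adjusted p = 0.0150). It is named for its place on the strand opposite to Crx, which was at 0 and 0.0404 CPM in the day 2 libraries. Trpm1, a cation channel of retinal bipolar cells and melanocytes, rose 46.4-fold, from 1.61 and 6.64 CPM to 168 and 216 CPM (adjusted p = 0.00954). Ly6a, or Sca-1, a surface protein of stem cells of the blood, rose 38.8-fold, from 0.281 and 0.292 CPM to 9.41 and 13.0 CPM (adjusted p = 0.0163).

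Others of these genes had known functions of several kinds. Calb2, which encodes the calcium-binding protein calretinin, rose 17.5-fold, from 1.61 and 2.81 CPM to 30.6 and 46.7 CPM (edgeR adjusted p = 0.00372). S100a13 rose 16.9-fold, from 2.43 and 4.69 CPM to 44.2 and 76.3 CPM (adjusted p = 0.0197). Cidea, a lipid droplet protein, rose 23.4-fold, from 0.401 and 0.584 CPM to 8.61 and 14.6 CPM (adjusted p = 0.00913). Aurkc, the Aurora kinase of meiotic cells, rose 19.03-fold, from 0.401 and 0.365 CPM to 3.87 and 10.8 CPM (adjusted p = 0.00913). Acsm4, a mitochondrial medium-chain acyl-CoA synthetase, rose 24.9-fold, from 0.482 and 0.146 CPM to 7.34 and 8.31 CPM (adjusted p = 0.0061). Tlx2, a homeobox factor of the enteric nervous system, rose from 0.261 and 0.0365 CPM to 5.45 and 9.04 CPM (adjusted p = 0.0440).

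Dmgdh and Bhmt2, neighbours on chromosome 13, were both among these 12 rises. They encode enzymes of the same branch of one-carbon metabolism: betaine-homocysteine methyltransferases pass a methyl group from betaine (Bhmt) or from S-methylmethionine (Bhmt2) to homocysteine, and dimethylglycine dehydrogenase (Dmgdh) breaks down the dimethylglycine that betaine leaves. Dmgdh had the smallest adjusted p of the named genes, with 0.843 and 0.949 CPM at day 0 and 22.8 and 28.6 CPM at day 2 (28.6-fold, log2 difference 4.84 ± 0.47 SE, edgeR adjusted p = 0.000559). Bhmt2 rose 28.2-fold, from 0.682 and 0.292 CPM to 10.7 and 16.7 CPM (adjusted p = 0.0038). Bhmt, their neighbour, was looked up after these values were seen, and rose from 6 counts to 478 counts over the 2 libraries of each day (0 and 0.109 CPM to 3.08 and 6.47 CPM, log2 difference 6.34, adjusted p = 0.0320). In mm10, Bhmt spans 93616675 to 93637961 and Bhmt2 spans 93655720 to 93674302, both on the minus strand, and Dmgdh spans 93674433 to 93752833 on the plus strand. Bhmt2 and Dmgdh thus point away from each other, with their starts on either side of 130 bases.

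Sequences near the starts of genes that changed are printed to show what these regulatory stretches look like; they come from RefSeq (GRCm38.p6, the build also known as mm10). The first is the whole stretch between the starts of Bhmt2 and Dmgdh, chr13:93674303-93674432 on the plus strand, which has a GC content of 70.8% against a median of 59.2% over the promoters of tested genes.
Bhmt2 to Dmgdh: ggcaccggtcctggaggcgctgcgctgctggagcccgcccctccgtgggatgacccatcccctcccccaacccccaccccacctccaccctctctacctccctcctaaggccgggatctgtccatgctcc
It holds none of the 4 motifs searched. These were CCGGAAG for ETS factors, CTTTGAT for TCF/LEF factors, TTCCNGGAA for STAT factors and TCAAGGTCA for ESRRB, each on both strands.

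In the 250 bases upstream of the start, the ETS letters were in 13.7% of 11736 tested genes with a RefSeq promoter, in 5.98% of 184 called higher and in 7.41% of 135 called lower. The TCF/LEF letters were in 2.90% of all, in 3.26% of those higher and in 4.44% of those lower, and the STAT letters were in 1.25%, 1.09% and 1.48%. The ESRRB letters were in 38 genes, 0.324% of all, and in 0.543% of those higher. Matches in genes that changed are shown here as examples, on each gene's own strand with the motif in capitals and the flanks in lower case.
Bhmt, ESRRB: tgaccccagaTCAAGGTCAgaggcctgct
Bmp4, ETS: gctgtgcaatCTTCCGGacccgggcct
Crxos, STAT: ccatTTCCTGGAAtcaagatcct
Mitf, TCF/LEF: gtgagcttgaCTTTGATagctcatcct
Phc1, TCF/LEF: ctgctggtccCTTTGATcctttctttc
They lie at chr13:93637815-93637843 (minus), chr14:46390749-46390775 (minus), chr7:15901396-15901418 (plus), chr6:97991568-97991594 (plus) and chr6:122340295-122340321 (minus). Their first motif base is 75, 96, 246, 205 and 84 bases upstream of a RefSeq start. That start equals the outermost start of the mm10 annotation used for gene spans in Bmp4, lies 203 bases inside it in Bhmt and 334 in Phc1, and is an inner start in Crxos and Mitf, so the matches in all but Bmp4 lie within the annotated gene. Mitf and Phc1 were picked as examples after their values were seen: Mitf, the melanocyte factor, rose from 6.90 and 9.20 CPM to 38.5 and 38.3 CPM (edgeR adjusted p = 0.0197), and Phc1, a subunit of Polycomb complex PRC1, fell from 877 and 733 CPM to 321 and 290 CPM (adjusted p = 0.00171). A match to these letters is a description of the sequence and not a measured binding site.

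The largest falls outside the ERK list held 2 ectonucleotide pyrophosphatases. Enpp3, a surface enzyme of basophils and mast cells, fell 39.1-fold, from 71.7 and 58.9 CPM to 2.28 and 1.05 CPM (edgeR adjusted p = 0.00228). Enpp2, or autotaxin, which makes the signalling lipid lysophosphatidic acid, went from 536 counts over the day 0 libraries to 2 counts over the day 2 libraries (adjusted p = 0.0211), which is 258 times fewer per library total (71.0 to 2135 at 95% confidence, from counting error alone). Spink1, a secreted trypsin inhibitor, fell 81.0-fold, from 10.3 and 6.13 CPM to 0.117 and 0.0809 CPM (adjusted p = 0.00221). Arhgef28, an exchange factor for the GTPase RhoA, fell 16.7-fold, from 29.6 and 26.3 CPM to 1.80 and 1.54 CPM (adjusted p = 0.00235). Tcerg1l, a relative of an elongation factor, fell 18.05-fold, from 8.19 and 8.25 CPM to 0.703 and 0.202 CPM (adjusted p = 0.0156). The collagen gene Col6a5 fell 16.2-fold, from 13.1 and 6.46 CPM to 0.390 and 0.809 CPM (adjusted p = 0.00339).

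Some called genes had no counts at all on 1 side, 9 of them at day 0 and 3 at day 2, and for these the fold is a lower bound set by 3 counts over the 2 libraries. Tnfsf11, or RANKL, the cytokine that drives osteoclasts, had 292 counts at day 0 and 0 at day 2, at least 93.7-fold lower. Vwc2 was at least 37.2-fold lower and Sftpd, a lung surfactant protein, at least 22.4-fold lower. Htr5a, a serotonin receptor, had 0 counts at day 0 and 130 at day 2, at least 45.0-fold higher, and Cpvl was at least 29.4-fold higher. These genes are named for their zero counts. The bounds cover counting error only.

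The cell cycle genes had 1 rise and 1 fall among 20 tested G1 cyclins and inhibitors, both of them in inhibitors of cyclin-dependent kinases. The share called was 10%, beside 2.92% over all tested genes. Cdkn1a, which encodes p21, rose 3.90-fold, from 51.3 and 67.5 CPM to 207 and 257 CPM (edgeR adjusted p = 0.0166). Cdkn1c, which encodes p57 and is imprinted, fell 4.34-fold, from 81.2 and 62.7 CPM to 14.7 and 18.4 CPM (adjusted p = 0.00339). It was the only one of 16 tested imprinted genes called (6.25%). The series asks about replication forks as well as transcription, and none of 37 tested DNA replication genes was called in either direction, with a list median of -0.04. At the 2.92% called over all tested genes, a list of this size may hold no called gene. None of the 37 was called with the mutant libraries alone or by DESeq2 either, where 11.6% and 7.94% of all tested genes were.

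Among 41 tested subunits and elongation factors of RNA polymerase II, 1 rose and 1 fell, with a median of -0.06. The share called was 4.88%, beside 2.92% over all tested genes. Aff1, a scaffold of the super elongation complex, rose 2.94-fold, from 50.3 and 60.0 CPM to 192 and 131 CPM (edgeR adjusted p = 0.0306). Tcea3, a form of the elongation factor TFIIS that helps a stalled polymerase restart, fell 2.38-fold, from 213 and 152 CPM to 75.3 and 77.7 CPM (adjusted p = 0.00689). Of 11 tested genes of the Polycomb complex PRC2, Jarid2, its targeting subunit, fell 2.62-fold, from 647 and 512 CPM to 265 and 177 CPM (adjusted p = 0.0418), and no other member was called.

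Glucose metabolism had 1 rise and 2 falls among 22 tested glycolysis genes. The share called was 13.6%, beside 2.92% over all tested genes, and the mutant libraries alone gave 2 rises and 4 falls. Slc2a3, the high-affinity glucose transporter GLUT3, rose 1.98-fold, from 726 and 975 CPM to 1775 and 1600 CPM (edgeR adjusted p = 0.0210). Pdk1, the kinase that shuts pyruvate out of the mitochondrial cycle, fell 6.33-fold, from 400 and 374 CPM to 72.5 and 49.8 CPM (adjusted p = 0.0369). Eno3, an enolase of muscle, fell 2.71-fold, from 21.8 and 22.3 CPM to 7.77 and 8.53 CPM (adjusted p = 0.0133). None of 35 tested oxidative phosphorylation genes was called, although 30 of their differences were positive, with a median of 0.19. Here the 2 day 2 libraries parted: 32 of the 35 were higher in replicate 2 than in replicate 1, and their summed level was 11640 CPM in replicate 1, close to 11620 and 11600 CPM at day 0, and 14520 CPM in replicate 2. None of 24 tested cholesterol synthesis genes and none of 17 tested adhesion genes was called; with the mutant libraries alone the adhesion list had 1 rise and 3 falls.

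Beside the 2.92% called over all genes, lists for other cell types held 1 called gene or none. In the germline and meiosis list, 1 of 21 tested members rose: Dazl, an RNA-binding protein of germ cells, went from 2.33 and 2.15 CPM to 7.30 and 10.8 CPM (4.03-fold, edgeR adjusted p = 0.0206). In the trophoblast list, 1 of 15 rose: Gata2 went from 2.83 and 4.49 CPM to 15.6 and 12.9 CPM (3.89-fold, adjusted p = 0.0332), while the summed level of the list was 518 and 446 CPM at day 0 and 373 and 257 CPM at day 2. Most of that sum was Peg10, an imprinted gene of the placenta, with 430.8 and 333.5 CPM at day 0 and 157.9 and 81.8 CPM at day 2. By contrast 12 of the 15 differences were positive, with a median of 1.19, and the list had 7 rises and 1 fall with the mutant libraries alone and 3 rises in DESeq2. In the stromal and fibroblast list, 1 of 16 tested members rose: the receptor gene Pdgfrb went from 1.73 and 3.39 CPM to 15.1 and 20.3 CPM (6.90-fold, adjusted p = 0.0213). Of the 15 other tested members, none was called, and the list had 8 positive and 7 negative differences, with 2 rises and 3 falls with the mutant libraries alone. The collagen gene Col1a2 was at 0.0803 and 0.0365 CPM at day 0 and at 0.508 and 1.05 CPM at day 2, Postn and Lum were at 0 in all 4 libraries, and the summed level of that list was 85.5 and 89.4 CPM and then 83.3 and 88.8 CPM.

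No gene of the primitive endoderm, mesoderm, neural or 2-cell-like lists was called in the fit to all libraries. Primitive endoderm, the sister lineage of the epiblast, had a median of 0.82 over 20 tested genes and a summed level of 833 and 839 CPM at day 0 and 1348 and 1015 CPM at day 2. Its defining factor Gata6 was under 1 CPM in all 4 libraries. With the mutant libraries alone that list had 6 rises and 2 falls, the mesoderm list 5 rises and 1 fall of 16, the neural list 1 rise and 2 falls of 11, and the 2-cell-like list 1 rise. DESeq2 called 1 fall, 2 rises and 1 fall, 2 falls, and 2 rises in these 4 lists, in that order. Over all tested genes, the share called was 11.6% with the mutant libraries alone and 7.94% in DESeq2. All 14 tested 2-cell-like genes had positive differences, with a median of 1.25, but their summed level was 246 and 197 CPM at day 0 and 246 and 238 CPM at day 2. The 2 day 2 libraries parted here too, with 13 of the 14 genes higher in replicate 2 than in replicate 1. The median log2 difference of replicate 2 from replicate 1 was 0.60 at day 2 and -0.05 at day 0. Several of the 2-cell-like genes, in the Zscan4 and Usp17l families, have near-identical copies, so their counts are uncertain.

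The mutant cells were also measured at 1 and 7 days of 2i, and the comparisons of neighbouring days share libraries, so their values are set side by side only. At day 1 against day 0, 216 genes (1.41%) were called, 106 higher (0.69%) and 110 lower (0.716%). For the 263 genes called higher at day 2, the median log2 difference was 1.47 at day 1 and 1.98 at day 2, both against day 0. For the 186 called lower it was -1.54 and -2.005. These genes were chosen on their day 2 values, so the larger medians at day 2 are partly set by that choice. Between day 1 and day 2 directly, edgeR called no gene, with 800 genes at an unadjusted p under 0.05, and DESeq2 called 58. Leaving out day 0 replicate 1 left 1 call at day 1.

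Single genes differed in how much of the change was present at day 1. Spry4 was at 0.277, 10.4 and 3.96 CPM in the 3 day 1 libraries, already far under its day 0 values. Nanog was at 538, 697 and 804 CPM at day 1, around its day 2 values of 734 and 669 CPM. In Cdkn1c and Id1 the day 1 values lay near those of day 0. Cdkn1c was at 41.1, 56.3 and 65.4 CPM at day 1 (edgeR adjusted p = 0.552 against day 0), before 14.7 and 18.4 CPM at day 2 and 6.65 and 5.43 CPM at day 7. Id1 was at 73.2, 101 and 78.4 CPM at day 1 (adjusted p = 0.977 against day 0), and at 9.55 and 10.4 CPM at day 7. Neither Cdkn1c nor Id1 was called between day 1 and day 2.

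From day 2 to day 7, 16 genes (0.104%) were called, 6 higher (0.039%) and 10 lower (0.0651%), and no gene was called without day 2 replicate 2. DESeq2 called 428. Gli1, the transcriptional effector and target of Hedgehog signals, fell from 68.1 and 61.5 CPM to 13.9 and 12.5 CPM (edgeR adjusted p = 0.0248), and it overlaps Arhgap9 on the genome. Id1 fell further (log2 difference -1.82, adjusted p = 0.0446). Among the rises, Scd1, the desaturase that makes monounsaturated fatty acids, went from 218 and 173 CPM to 469.5 and 469 CPM (adjusted p = 0.0409). Acox3, a peroxisomal oxidase of branched fatty acids, went from 10.8 and 11.0 CPM to 28.6 and 28.6 CPM (adjusted p = 0.0409). Rab11fip5, a trafficking protein, went from 38.5 and 42.3 CPM to 172 and 212 CPM (adjusted p = 0.0248). Some of the genes that rose by day 2 had higher values still at day 7 without a called difference: Dmgdh was at 101 and 93.9 CPM and Bhmt at 21.7 and 21.9 CPM. Otx2, which had fallen to 2.38 and 1.33 CPM, was at 11.8 and 6.87 CPM (adjusted p = 0.133).

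WT cells went through the same 2 days of 2i, and those libraries are separate from the mutant ones. There 332 genes (2.16%) were called, 179 higher (1.16%) and 153 lower (0.996%), a count that was unstable. It was 0 with the WT libraries alone, 1489 when the WT replicate number was added to the model, and 1221 by DESeq2. With 1 library left out it was 36 to 552, the lowest without WT day 2 replicate 2 and 107 without WT day 0 replicate 2. In WT the same-numbered libraries deviated together, with correlations of 0.236 to 0.744 between days and 0.535 between days 0 and 2, which the fit does not use. Of the 332, 207 were also called in the mutant, all in the same direction, which is 46.1% of the mutant calls and 62.4% of the WT calls. Of the 449 mutant calls, 445 had the same sign in WT. The median log2 difference of the mutant's called rises was 1.98 in the mutant and 1.45 in WT, and that of the falls was -2.005 and -1.76. The genes were chosen on the mutant values, so the mutant medians are a description.

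The difference between the 2 responses was tested directly, as an interaction of genotype and day. No gene was called by edgeR or by DESeq2, with 366 genes at an unadjusted p under 0.05, 67 of them among the 449. The precision of this test was limited: the median 95% interval of the difference reached 1.13 log2 units to either side, before any adjustment over genes, and larger differences were not called either. For Nanog the mutant response exceeded the WT response by 0.21 (95% interval -0.52 to 0.94), for Tfcp2l1 by -0.05 (-0.86 to 0.77) and for Spry4 by 0.01 (-2.70 to 2.72). Id1 had a smaller fall in the mutant, with a difference of 1.46 (0.57 to 2.36, adjusted p = 1), and its WT values were 82.0 and 88.2 CPM at day 0 and 15.7 and 9.51 CPM at day 2. Acsm4 had a difference of 2.52 (0.56 to 4.47) and Dppa4 one of -0.63 (-1.16 to -0.10), and neither passed the adjustment.

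**Figure D4:**
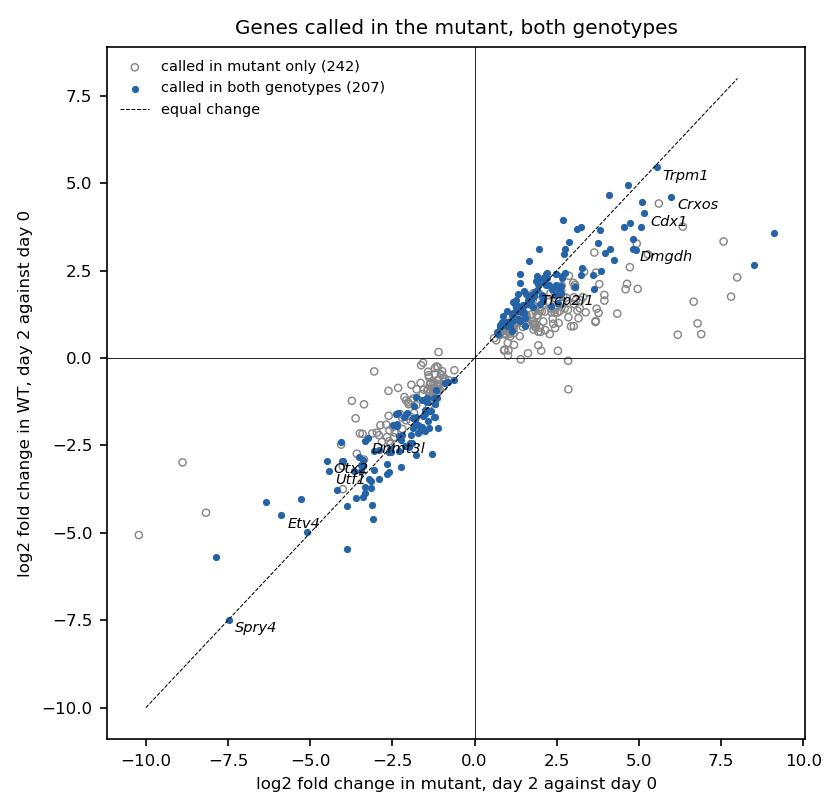
Log2 difference between day 2 and day 0 in the mutant (horizontal) and in WT (vertical) for the 449 genes called in the mutant, filled where WT was called too (207) and open where it was not (242). The dashed line marks equal change, and 445 genes lie in the quadrants where both genotypes have the same sign.

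Since the allele slows the polymerase, the response was also set against the length of the gene as it lies in the genome. Genes with a span under 10 kb had a median log2 difference of -0.01 between mutant day 2 and day 0, those of 10 to 30 kb 0.01, those of 30 to 100 kb 0.06 and those of 100 kb or more 0.05. In WT the medians were 0.08, 0.02, -0.06 and -0.14. The share of genes called in the mutant was 2.58%, 2.71%, 3.33% and 3.34% in the same order, beside 2.92% over all.

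These class medians were smaller than the gap between the 2 mutant day 2 libraries. Replicate 2 minus replicate 1 had a median of 0.32 for genes under 10 kb and -0.22 for genes of 100 kb or more, against -0.03 and 0.07 at day 0. The class medians of the day 2 response did not exceed this spread. Replicate 2 is also the library with the higher sum of oxidative phosphorylation genes, and whether the 2 differences share a source was not tested.

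**Figure D5:**
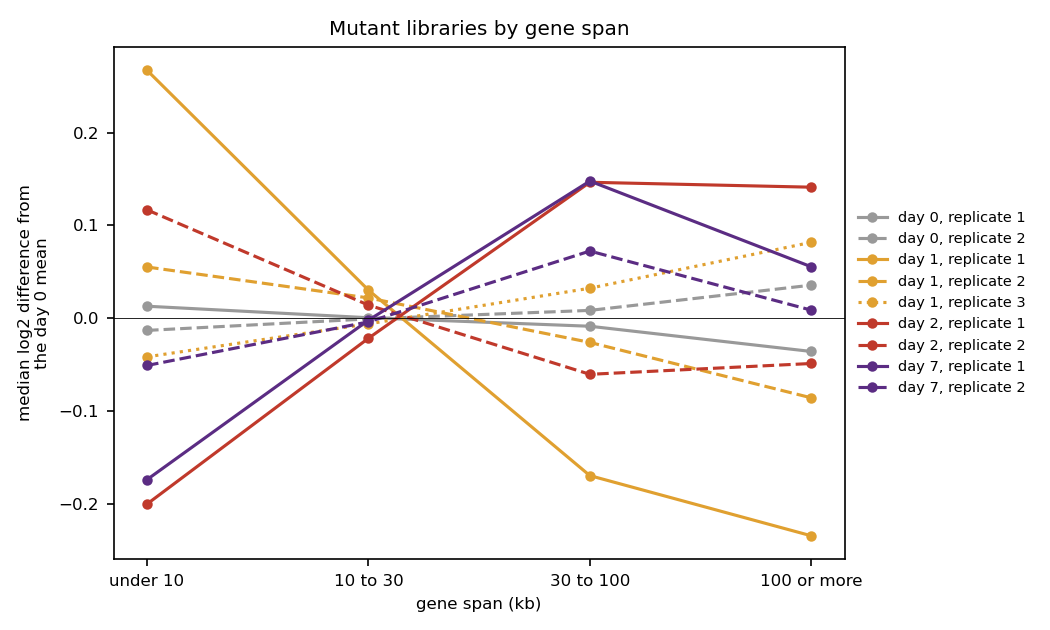
Median log2 difference of each mutant library from the mean of the 2 day 0 libraries, for genes in 4 classes of genomic span (kb); each line is 1 library. The 2 day 2 libraries (red) tilt in opposite directions, from -0.20 and 0.12 for genes under 10 kb to 0.14 and -0.05 for genes of 100 kb or more, and the 3 day 1 libraries differ from each other as well.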

How the data were processed

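Total RNA was extracted with TRIzol, treated with DNase and sequenced as DNBSeq libraries, per the labels. The authors deposited raw gene counts in 1 table for 17 libraries. The submitters' processing notes name mm10, STAR and deepTools without versions. The counting program, its strand setting and its handling of multimapping reads are not given in the sources used here. Mutant day 2 was compared with mutant day 0 in edgeR 4.0.16 (R 4.3.3, limma 3.58.1) by a quasi-likelihood fit over all 17 libraries and 8 groups. TMM normalization and edgeR's default low-count filter on the 8 groups were used, with Benjamini-Hochberg adjustment over 15365 genes and a threshold of 0.05. SE is the log2 difference divided by the square root of F, and CPM are counts scaled by TMM library size.

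The members and lists were chosen with earlier results of these data known. Genes named were the 12 largest called rises and falls that reached 5 CPM and did not overlap between days, up to 4 called genes a list, 5 a direction for day 7 against day 2, and a fixed set of pathway genes. Further list members and some neighbouring genes are given outside this rule, and not each of them is marked as such. The immediate early genes other than Egr1 were looked up after their values were seen. Replicate numbers did not pair the mutant libraries (correlation of deviations 0.0846 for days 0 and 2). Alternatives were DESeq2 1.42.0, other normalizations, filters, offsets by gene span, subsets of libraries and a replicate block. The fit was also run on simulated counts drawn independently for each library. These lacked the shifts between replicates described above, so the simulation cannot speak for the calls made here. Gene positions and spans are from the mm10 annotation, and 97.5% of genes matched it.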

Additional observations from a re-analysis of the deposited data

How the results depend on the processing

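For mutant day 2 against day 0, the 449 calls became 1748 with groups fitted alone, 1713 with the mutant libraries only, 1331 with a term for the WT series, 872 without WT replicate 1 at days 0 and 1 (chosen after seeing the data), 1220 in DESeq2 and 577 with a replicate block. They ranged from 45 to 584 when 1 library was left out. Other normalizations, filters and span offsets gave 453 to 557.

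At day 1 against day 0 the same settings gave 1077 (groups alone), 1192 (mutant libraries), 821 (WT term), 805 (DESeq2) and 116 (replicate block), and 1 to 315 with 1 library left out. For day 2 against day 1, 0 became 33, 6 and 58 with the mutant libraries, the WT term and DESeq2, and 0 to 1. For day 7 against day 2, 16 became 802, 741, 350, 428 and 29 in the order of day 1, 28 with the filter of 1 CPM in 4 libraries and 54 with span offsets, and 0 to 38. For WT day 2 against day 0, 332 became 0 with groups alone and 0 with the WT libraries only, 1489 with the WT term and 1221 in DESeq2, and 36 to 552. The test of the response difference gave 0 in every setting run. Why the counts moved was not tested, beyond the wider WT replicates.

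Of 53 called named genes, none changed sign. Uncalled genes did when 1 library was left out: Acox3 ranged from -0.0497 to 0.296, Ccnd1 from -0.0915 to 0.229, Egr1 from -4.27 to 1.74, Polr2a from -0.365 to 0.0057 and Pou5f1 from -0.315 to 0.213. Egr1 was at -1.40 with the replicate block. The replicate numbers did not pair the mutant libraries, so calls lost under the block are not read as weaker effects. With 2 libraries a day, the number of libraries limits the precision, and how far depth limits the calls was not tested.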

Other observations

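The Hox genes, developmental homeobox genes that embryonic stem cells keep silent under Polycomb, were looked up after their values had been seen among the rises, and so carry no test as a family. Beside 1.71% called higher over all tested genes, 8 of 32 tested Hox genes rose and none fell between mutant day 0 and day 2. The median log2 difference of the 32 was 2.08. Some of the 32 had almost no counts at day 0 and could hardly fall. Hoxc5, Hoxc8 and Hoxc11 had 0 counts over the 2 day 0 libraries, and Hoxc9 and Hoxc10 had 4 each. The lack of falls and the size of the median are therefore partly set by these low levels. The called genes were Hoxc4, Hoxc5, Hoxc10, Hoxc11 and Hoxc12 of 9 tested in the Hoxc cluster, and Hoxa7, Hoxa9 and Hoxa10 of 8 tested in the Hoxa cluster. None of 8 tested Hoxb and none of 7 tested Hoxd genes was called. The levels were low throughout: Hoxc4 went from 0.241 and 0.183 CPM to 2.34 and 4.33 CPM, and was at 9.68 and 10.2 CPM at day 7. Hoxa7 went from 0.100 and 0.310 CPM to 1.99 and 1.92 CPM. Over the same days in WT, Hoxc4, Hoxc12 and Hoxc13 were called higher (edgeR adjusted p = 0.0342, 0.0342 and 0.0405).

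Other called genes outside the lists, also picked after their values were seen, include Kit, the receptor for stem cell factor, which rose from 37.0 and 46.1 CPM to 272 and 190 CPM (edgeR adjusted p = 0.00776). Alpl, the alkaline phosphatase whose staining marks embryonic stem cells, rose from 162 and 138 CPM to 519 and 594 CPM (adjusted p = 0.00171). Mkrn1, a ubiquitin ligase, fell from 1616 and 1366 CPM to 415 and 453 CPM (adjusted p = 0.00171). Zfp423, a zinc finger factor, fell from 84.1 and 59.5 CPM to 8.59 and 5.66 CPM (adjusted p = 0.0156).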
